A study of Oryctolagus cuniculus with 6 samples.

Results

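FGF16, FGF18, GDF5, GDF6 and STC2 encode growth factors and a hormone that cells secrete, and their mRNAs were described in the ear scars of rabbits treated with exosomes or with saline. They were taken by gene symbol from the mRNA table, where each of the 5 has 1 transcript among 421 transcripts of 415 genes. All 6 animals were female New Zealand White rabbits with 6 full-thickness wounds on the ventral side of each ear, and the scar was sampled at day 21. The ADSC-Exos arm (3 rabbits) received 100 µg of exosomes in 2 ml, vesicles that adipose-derived stem cells had released, and the control arm (3 rabbits) received saline. By the series text they were applied on the first 3 days post-wounding and by the sample labels for 21 days, and which holds is not settled here. Each replicate is a separate animal, the age of the rabbits is not given, and how the wounds of 1 animal entered its library is not stated.

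The FGFs bind heparan sulfate and FGF receptor tyrosine kinases, which signal through the MAP kinase pathway. FGF18 is known from mouse genetics as a regulator of cartilage and bone growth and of the resting phase of hair follicles, and FGF16 belongs to the subfamily of FGF9. GDF5 and GDF6 are ligands of the BMP family, which signal through type I and type II serine/threonine kinase receptors to SMAD proteins and are held back by antagonists such as noggin. GDF5 is a marker of developing joints and acts in cartilage formation. STC2, stanniocalcin 2, is a glycoprotein that inhibits the protease PAPP-A, which frees insulin-like growth factors from a binding protein, and in human and mouse cells it is induced by endoplasmic reticulum stress through the transcription factor ATF4.

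The deposited values are log2(normalized reads + 1), where normalized reads are reads divided by a size factor for library depth. They resolve into whole reads, which are printed here beside them. Size factors ran from 0.981 to 1.01 in ADSC-Exos rabbits and from 0.890 to 1.18 in control rabbits. Reads over the listed mRNAs came to 86844 to 224554 in ADSC-Exos rabbits and to 100758 to 155547 in control rabbits, and library totals are unknown. Every listed mRNA has an absolute log2 difference over 1 and a p-value under 0.05 in the authors' deposited comparison, so all 5 genes had to differ to be listed. Among the 242 mRNAs listed higher, ADSC-Exos rabbit 1 had the lowest treated value for 83.9% and lay within the range of the controls for 42.6%. Among the 179 listed lower it was the treated rabbit nearest the controls for 41.9% and within their range for 23.5%. Of 15 fibroblast and myofibroblast markers only CTHRC1 was listed, so the scar label was not checked against the others here. In bulk scar RNA, fewer cells of a type and less RNA per cell cannot be told apart.

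FGF18 and STC2 had higher means in ADSC-Exos scars, and FGF16, GDF5 and GDF6 lower ones, 2 against 3 of the 5 genes. On the log2 scale STC2 had the widest spread between treated rabbits and GDF5 the widest between controls, and FGF16 and GDF6 had at most 7 reads in any rabbit. The arms did not overlap for 3 of the 5 genes, FGF16, FGF18 and GDF6, where 53.7% of the 421 listed mRNAs had arms that did not overlap. None of the 5 had an FDR under 0.05 in the authors' deposited table, where 11.6% of the listed mRNAs did. By limma with Benjamini-Hochberg adjustment over 17743 transcripts, 0 of the 5 genes and 0.0% of the listed mRNAs passed 0.05. At an unadjusted limma p under 0.05 there were 3 of the 5 (FGF16, GDF6 and STC2), against 45.8% of the listed mRNAs. The median absolute log2 difference was 2.31 over the 5 genes and 1.65 over all listed mRNAs, and with a pseudocount of 10 it was 1.03 and 1.05. With FGF16 at its bound against 3 reads the median of the 5 was 1.66.

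**Figure D1:**
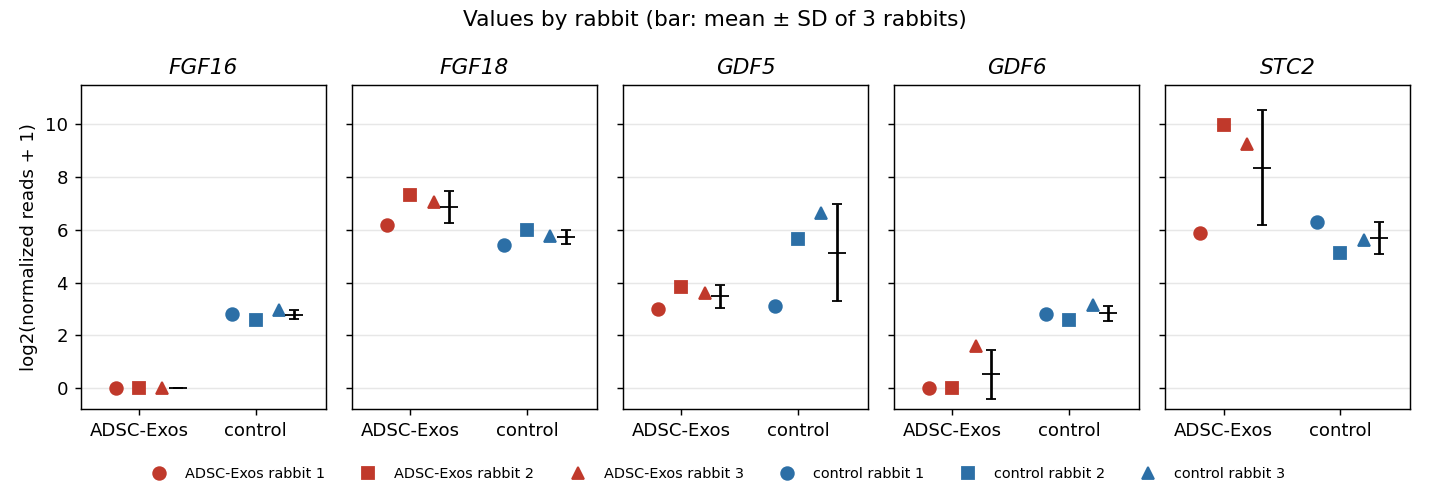
Values of the 5 genes on the log2(normalized reads + 1) scale, with 1 symbol for each rabbit, red for ADSC-Exos and blue for control, and the mean ± SD of each arm in black. FGF16 sits at 0 in all ADSC-Exos rabbits, STC2 has ADSC-Exos rabbit 1 at 5.87 among the controls and the other treated rabbits above 9, and GDF5 has control rabbit 1 at 3.11 among the treated rabbits.

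FGF18 had 73, 159 and 131 reads in ADSC-Exos rabbits 1 to 3, against 50, 62 and 47 in control rabbits 1 to 3. After division by the size factors these were 72.5, 161 and 134 normalized reads in the ADSC-Exos rabbits and 42.2, 62.0 and 52.8 in the controls. All treated rabbits lay above all controls, rabbit 1 the closest. The mean was 122 ± 45.2 normalized reads in ADSC-Exos scars and 52.3 ± 9.87 in control scars (SD, n = 3 each), a ratio of 2.34. Single treated rabbits were 1.39, 3.07 and 2.55 times the control mean. The coefficient of variation was 37.0% among treated rabbits and 18.9% among controls, where counting error alone gives 9.09% and 13.7%.

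On the log2 scale FGF18 averaged 6.87 ± 0.60 in ADSC-Exos and 5.72 ± 0.27 in control scars (SD, n = 3 each), a difference of 1.15 (SE 0.50, 95% interval -0.01 to 2.31). Limma gave an adjusted p of 1. An exact two-sided permutation test over the rabbits gave p = 0.1, the smallest that 3 against 3 allows. The difference ran from 0.92 to 1.49 when 1 rabbit was left out, the highest without ADSC-Exos rabbit 1. In the authors' deposited table FGF18 had an FDR of 0.11 and ranked 86th of 421 by p-value but 349th by size of difference.

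The listed genes whose profiles over the 6 rabbits came closest to that of FGF18 were NAGK, SCRG1 and ISM1. Likeness was the root mean square distance between log2 values set relative to each gene's control mean, and it was 0.17 for NAGK and 0.18 for both others, against a median of 1.57 over the listed mRNAs. NAGK encodes N-acetylglucosamine kinase, ISM1 the secreted protein isthmin 1, and SCRG1 a protein named for stimulating chondrogenesis. SCRG1 had 48, 106 and 104 reads in ADSC-Exos rabbits against 39, 34 and 32 in controls. All 3 share with FGF18 a treated arm in which rabbit 1 is the lowest, but they were picked for likeness to FGF18.

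FGF16 had no reads in any of the 3 ADSC-Exos rabbits, against 7, 5 and 6 reads in control rabbits 1 to 3. The controls averaged 5.88 ± 0.873 normalized reads (SD, n = 3). A count of 0 allows up to 3 reads in a rabbit. With 3 reads in each treated rabbit, the mean would be 1.95-fold lower in ADSC-Exos scars, which is taken as a bound. It covers counting error in the treated rabbits only and takes the control mean as exact. The 18 control reads carry an exact Poisson interval of 10.7 to 28.4. Among controls the coefficient of variation was 14.8%, below the 40.8% of counting error alone. Of the listed mRNAs, 24 (5.7%) had no reads in any ADSC-Exos rabbit.

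The size of the FGF16 difference depended on the pseudocount. It was -2.78 (SE 0.63, 95% interval -4.23 to -1.32) with the deposited pseudocount of 1, -5.89 with 0.1 and -0.67 with 10. Limma's adjusted p was 1, and the exact two-sided permutation test gave p = 0.1. The difference stayed between -2.87 and -2.69 without any 1 rabbit, since no treated rabbit had a read. The authors' deposited table gave an FDR of 0.12.

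MS4A10, a membrane-spanning protein gene, had the same reads as FGF16 in every rabbit, 0, 0 and 0 in ADSC-Exos and 7, 5 and 6 in control scars. The next closest profiles were those of the homeobox gene HOXB9 (distance 0.24) and of GPC5 (0.29), which encodes glypican 5, a heparan sulfate proteoglycan of the cell surface. Neither had reads in ADSC-Exos rabbits, and controls had 7, 3 and 6 reads of HOXB9 and 5, 3 and 6 of GPC5. At such counts few different profiles are possible, so a small distance carries little information.

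GDF5 had 7, 13 and 11 reads in ADSC-Exos rabbits 1 to 3, against 9, 50 and 88 in control rabbits 1 to 3. Normalized, the values were 6.96, 13.2 and 11.2 in ADSC-Exos and 7.60, 50.0 and 98.9 in control scars. The arms overlapped: control rabbit 1 lay among the treated rabbits, and the other controls above all of them. The mean was 10.4 ± 3.17 in ADSC-Exos and 52.2 ± 45.7 in control scars (SD, n = 3 each). Controls differed 13.0-fold between highest and lowest and treated rabbits 1.89-fold. Treated rabbits varied by 30.4%, close to the 31.1% of counting error alone, while controls varied by 87.6% against 14.3%.

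The GDF5 log2 difference was -1.66 (SE 0.89, 95% interval -3.72 to 0.39; limma adjusted p = 1), with means of 3.48 ± 0.43 in ADSC-Exos and 5.14 ± 1.83 in control scars. The exact two-sided permutation test gave p = 0.3. Without control rabbit 1 the difference was -2.68, and without control rabbit 3 it was -0.91, so single control rabbits moved it by more than 1.5 times. The ratio of control over ADSC-Exos means was 4.99 with all rabbits, 7.13 without control rabbit 1 and 2.76 without control rabbit 3. Its FDR in the authors' deposited table was 0.29.

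The listed cartilage markers had the same order of control rabbits as GDF5, an order that the erythroid transcripts below shared. Of 24 cartilage markers 3 were listed, COL10A1, EPYC and SCRG1, and the levels of the other 21 were not analysed here. COL10A1, the collagen of hypertrophic cartilage, had 5804, 2718 and 5046 normalized reads in ADSC-Exos and 8313, 21179 and 22345 in control scars. EPYC, the cartilage proteoglycan epiphycan, had 127, 81.0 and 350 in ADSC-Exos and 194, 495 and 898 in control scars. In normalized reads of GDF5, COL10A1 and EPYC alike, control rabbit 1 was the lowest control and control rabbit 3 the highest. SCRG1 differed from them in having higher values in treated rabbits. Its controls had the same order but were close together (33.0, 34.0 and 36.0 normalized reads).

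The summed level of the 3 listed cartilage markers was 2907 to 5979 normalized reads in ADSC-Exos and 8541 to 23278 in control rabbits. Most of this sum was COL10A1, while the arms of EPYC overlapped and SCRG1 was higher in treated rabbits. The part of these markers in the GDF5 values was not tested. The 4 erythroid transcripts listed, of 3 genes among 11 markers, also separated the arms. Their summed normalized reads, mostly of HBB2, were 3633 to 6924 in ADSC-Exos and 9701 to 37337 in control rabbits. In all 4, control rabbit 1 was again the lowest control and control rabbit 3 the highest. HBB2 had 9069, 12809 and 34886 normalized reads in control rabbits 1 to 3. The order was thus not particular to cartilage genes, and its share over the listed mRNAs was not computed. The part of the erythroid transcripts in the GDF5 values was not tested either.

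CLEC3A, a C-type lectin gene of cartilage, was among the 3 genes closest to GDF5 in profile, at a distance of 0.61. It had 819, 962 and 1147 reads in ADSC-Exos and 861, 3336 and 3051 in control rabbits, and since it was picked for its likeness to GDF5, its low value in control rabbit 1 is no further case of that order. In normalized reads the treated rabbits had 814 to 1169 and control rabbit 1 had 727, below them all. FCRLA, an Fc receptor-like gene of B cells, was closer at 0.52, with no reads in ADSC-Exos rabbits and 0, 7 and 12 in controls. LAMP3, a lysosomal membrane protein of mature dendritic cells, stood at 0.58, with 5, 12 and 20 reads in ADSC-Exos and 17, 33 and 69 in control rabbits. The median distance of GDF5 to the listed mRNAs was 2.29.

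GDF6, the close relative of GDF5, had 0, 0 and 2 reads in ADSC-Exos rabbits 1 to 3 and 7, 5 and 7 in control rabbits 1 to 3. The highest treated rabbit, at 2.04 normalized reads, lay below the lowest control, at 5.0. The mean was 0.68 ± 1.18 normalized reads in ADSC-Exos and 6.26 ± 1.47 in control scars (SD, n = 3 each). Pooled over rabbits, 2 reads in ADSC-Exos against 19 in control scars gave 10.9% of the control level, with an exact 95% counting interval of 1.23% to 45.1%. That interval leaves out the spread between rabbits. Both treated reads came from ADSC-Exos rabbit 3: without that rabbit the treated arm had 0 reads, and without rabbit 1 or 2 the ratio of ADSC-Exos over control means was 0.163.

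On the log2 scale GDF6 averaged 0.53 ± 0.93 in ADSC-Exos and 2.84 ± 0.29 in control scars, a difference of -2.31 (SE 0.75, 95% interval -4.04 to -0.57; limma adjusted p = 1). It was -4.49 with a pseudocount of 0.1 and -0.61 with a pseudocount of 10. The exact two-sided permutation test gave p = 0.1. Unlike GDF5, GDF6 was similar in the 3 controls, which varied by 23.4% where counting error alone gives 39.7%. The authors' deposited table gave an FDR of 0.46, the highest of the 5 genes. The closest profiles were those of TRAT1, a T-cell receptor adaptor gene (distance 0.20), LGI2 (0.32) and LBP, which encodes the lipopolysaccharide-binding protein (0.41), against a median of 2.52. GDF6, TRAT1 and LGI2 had at most 12 reads in any rabbit, so their small distances carry little information.

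**Figure D2:**
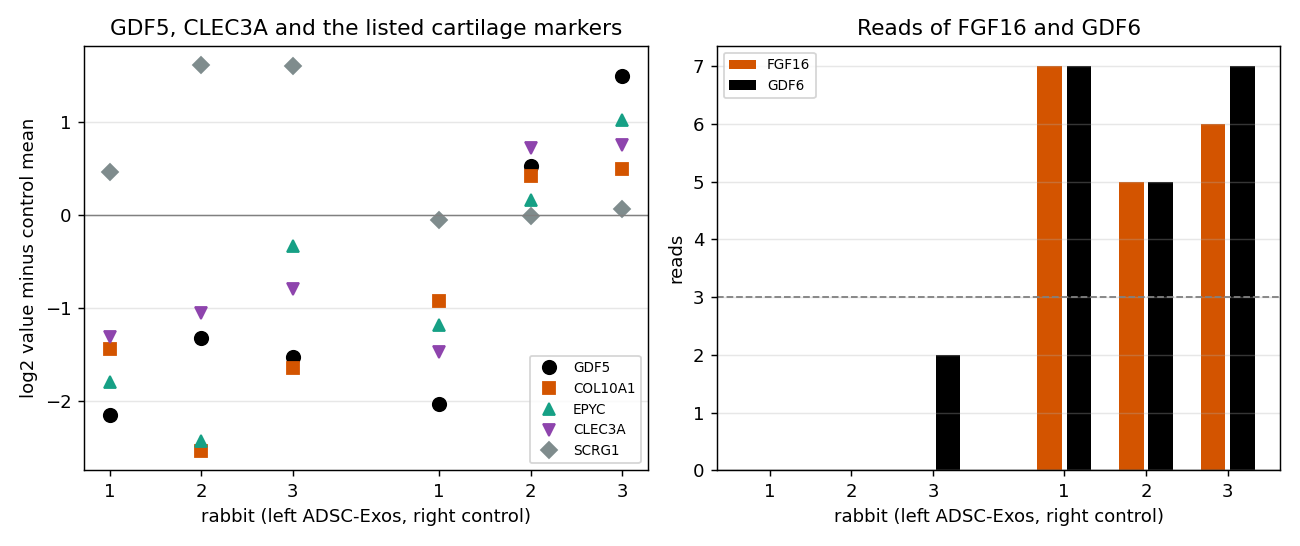
Left, log2 values relative to the control mean for GDF5, CLEC3A and the 3 listed cartilage markers in each rabbit; right, reads of FGF16 and GDF6 in each rabbit, with a dashed line at the 3 reads that a count of 0 allows. Control rabbit 1 is well below the other controls for GDF5, COL10A1, EPYC and CLEC3A, while the controls of SCRG1 lie close together. The treated rabbits have 0 reads of FGF16 and at most 2 of GDF6.

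STC2 had 58, 991 and 592 reads in ADSC-Exos rabbits 1 to 3, against 93, 34 and 43 in control rabbits 1 to 3. That is 57.6, 1003 and 604 normalized reads in the ADSC-Exos rabbits and 78.6, 34.0 and 48.3 in the controls. ADSC-Exos rabbit 1 lay within the range of the controls, and rabbits 2 and 3 were 18.7 and 11.3 times the control mean. The arms therefore overlapped. The means were 555 ± 475 in ADSC-Exos and 53.6 ± 22.8 in control scars (SD, n = 3 each), a ratio of 10.3. Treated rabbits varied by 85.5% where counting error gives 4.28%, so depth does not limit this value, and controls varied by 42.5% against 13.3%.

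The STC2 log2 means were 8.36 ± 2.19 in ADSC-Exos and 5.69 ± 0.60 in control scars, and the difference was 2.67 (SE 1.02, 95% interval 0.31 to 5.03; limma adjusted p = 1). An exact two-sided permutation test gave p = 0.2. Without ADSC-Exos rabbit 1 the difference was 3.92 and the ratio of means 15.0, and without ADSC-Exos rabbit 2 they were 1.87 and 6.16. STC2 had the lowest FDR of the 5 genes in the authors' deposited table, 0.093. STC2 was thus among the 42.6% of mRNAs listed higher with ADSC-Exos rabbit 1 within the range of the controls.

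The profiles nearest to STC2 were those of the potassium channel gene KCNJ1 (distance 0.45), ERMN, which encodes the cytoskeletal protein ermin of myelinating cells (0.47), and the chemokine gene CCL1 (0.48), against a median of 1.68. CCL1 had 3, 44 and 49 reads in ADSC-Exos and 3, 3 and 2 in control rabbits. KCNJ1 had 0, 11 and 12 reads and ERMN 0, 11 and 8 in ADSC-Exos rabbits, and neither had reads in controls. Each was high in ADSC-Exos rabbits 2 and 3 and at the control level in rabbit 1. Since they were picked for likeness to STC2, they are no further case of that pattern. KCNJ1 and ERMN also rest on at most 12 reads in any rabbit.

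**Figure D3:**
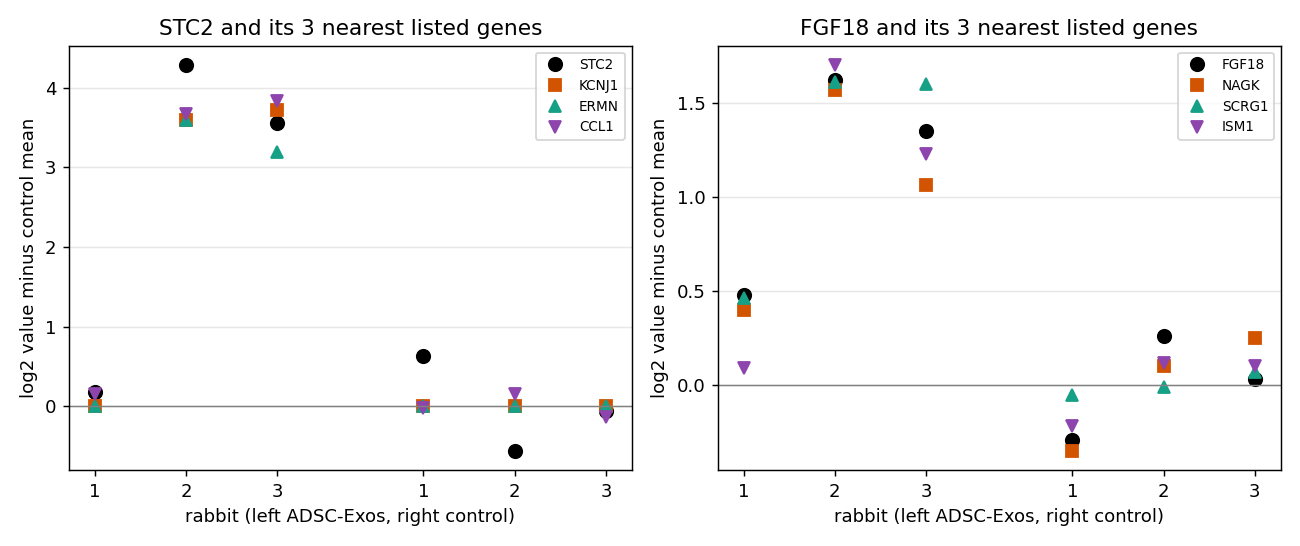
Log2 values relative to the control mean for STC2 (left) and FGF18 (right), in black, with the 3 listed genes nearest to each in profile, for each rabbit. STC2 and its neighbours lie near 0 in ADSC-Exos rabbit 1 and above 3 in rabbits 2 and 3, while FGF18 is at 0.48 in rabbit 1.

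FGF18 and STC2 shared the order of the treated rabbits, lowest in rabbit 1 and highest in rabbit 2, but not that of the controls, where rabbit 1 was the lowest for FGF18 and the highest for STC2. Their profiles lay 1.50 apart. The closest pair among the 5 genes was FGF16 and GDF6, at 0.63, and the most distant FGF16 and STC2, at 4.07. FGF16 and GDF6 had at most 7 reads in any rabbit, so their small distance carries little information. GDF5 lay 1.22 from GDF6. In the RefSeq gene table (assembly mOryCun1.1, matched by symbol for 5 of 5 genes) FGF18 and STC2 lie on the same chromosome with 15 protein-coding genes between them, of which 0 were among the listed mRNAs. Of the 20 nearest protein-coding genes of each of the 5, 0 were listed. Matching, here and for the gene lists, was by symbol. Of the 421 listed mRNAs, 100 have no symbol and could not be found in this way. The share of listed genes expected near any gene was not computed, so these counts do not show that neighbours were unchanged.

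**Figure D4:**
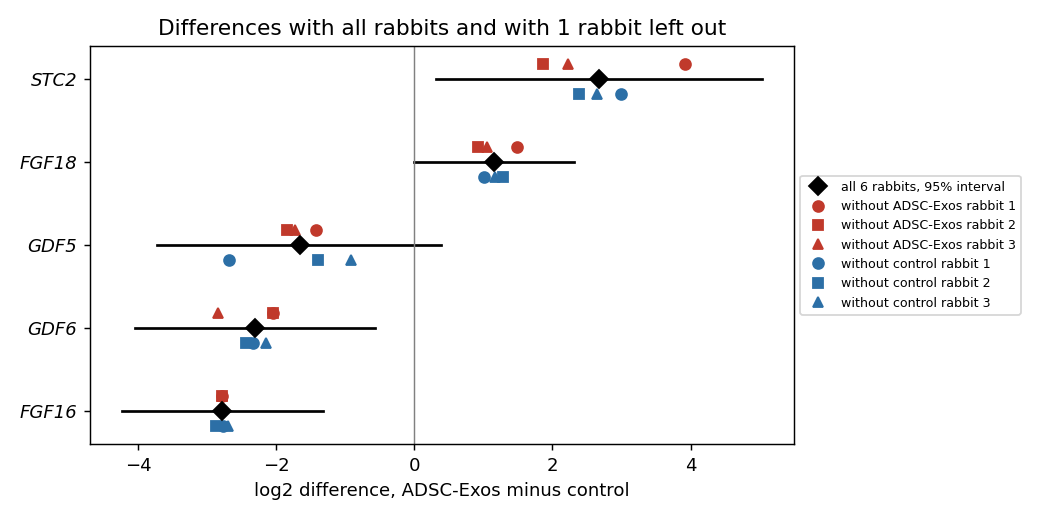
Log2 difference, ADSC-Exos minus control, for each gene with all 6 rabbits (black diamond, with the 95% interval from limma) and with 1 rabbit left out (red for a treated and blue for a control rabbit). The GDF5 values without 1 control rabbit run from -2.68 to -0.91 and those of STC2 without 1 treated rabbit from 1.87 to 3.92, while no value with 1 rabbit left out crosses 0.

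Few other genes of these pathways were among the listed mRNAs, and none passed the test. Over 9 lists of 173 pathway genes, 6 were listed, the 5 genes above, which the lists hold by choice, and TRIB3. FGF ligands had 2 of 22 listed, 1 higher (FGF18) and 1 lower (FGF16), with a median difference of -0.81, or 0.18 with a pseudocount of 10 and 0.09 with FGF16 at its bound, so the pair had no common direction. BMP and GDF ligands had 2 of 25, GDF5 and GDF6, both lower, with a median of -1.99, or -0.94 with a pseudocount of 10. The median over all 421 listed mRNAs was 1.12, and 0.72 with a pseudocount of 10. FGF receptors and co-receptors (21 genes), FGF transducers, feedback inhibitors and targets (23), BMP receptors and SMADs (17), BMP antagonists (21) and BMP targets (14) had 0 listed, so their levels were not analysed here.

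STC2 was the only 1 of 17 genes of the stanniocalcin, PAPP-A and insulin-like growth factor axis that was listed. Of 13 stress-response genes of the ATF4 branch, 1 was listed, TRIB3, a pseudokinase induced through ATF4. TRIB3 had 39, 60 and 59 reads in ADSC-Exos and 46, 29 and 13 in control rabbits, and its arms overlapped. Its log2 difference was 1.00 (SE 0.54; limma adjusted p = 1).

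In the authors' annotation FGF16 and FGF18 carried the same 7 KEGG pathways, among them MAPK signaling, to which 5 listed mRNAs were assigned, 4 higher and 1 lower (FGF16). GDF5 carried 3 pathways and was the only listed mRNA assigned to TGF-beta signaling. GDF6 and STC2 carried none. Of the 6 listed mRNAs annotated with growth factor activity, 4 are among the 5 genes described here. FGF18 was the 1 of the 6 with a higher mean in ADSC-Exos scars, and 5 had lower means. Of all 421 listed mRNAs, 179 were lower. The deposited circRNA table held 0 circular RNAs of the 5 genes, and 0 listed lncRNAs were annotated within the authors' distance of their transcripts.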

How the data were processed

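Scar RNA of 6 rabbits, 3 in each arm, was sequenced. The submitters' processing notes name STAR 2.7.6a, HTSeq 2.0.3, DESeq2 1.30.1, FastQC 1.0.0 and Trimmomatic 0.40, but not what each did. The build of the genome was not given in the sources used here. Whether counting used strand is not stated. The authors deposited log2 values per transcript and rabbit, log2 fold changes, and p-values with FDR. Raising 2 to the deposited log2 value and subtracting 1 gave multiples of 1 step per library (100% of values, at a tolerance of 0.01 reads), so reads were recovered. The authors' log2 fold change is the difference of arm means, so it understates changes of low genes.

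Both arms were compared with limma 3.58.1 (trend and robust options) in R 4.3.3 over all 421 mRNAs. Benjamini-Hochberg adjustment was over 17743 transcripts, with unlisted ones given a p of 1. That number is inferred from the ratios of deposited FDR to p, of which 53.4% came within 0.0001 of a whole rank, and every adjusted p rests on it. SE and intervals are limma's. The fit was also run on simulated data, with less spread between rabbits than STC2 and GDF5 had and without low counts. That run does not show how the fit performs for STC2, GDF5, FGF16 or GDF6. The selection in the table used the same rabbits, so limma's p-values are not independent of it. Genes and lists were chosen with earlier results of these data known. Named genes are the 5, the listed pathway genes and the 3 nearest profiles of each. COL10A1, EPYC and SCRG1 are the listed cartilage markers. Alternatives were 2 scalings, pseudocounts of 0.1 and 10, a filter at 10 normalized reads, plain limma, adjustment over the listed table, leaving out each rabbit, and the replicate number as a block. 3 of the 5 genes pass the filter.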

Additional observations from a re-analysis of the deposited data

How the results depend on the processing

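The table holds selected mRNAs and each arm 3 rabbits, which limits every result here. The log2 differences of the 5 genes kept their sign and stayed short of an adjusted p of 0.05 in all 68 recomputations; FGF16 and GDF6 have no value under the filter at 10 normalized reads. Adjusted over the listed table alone, limma's adjusted p was 0.0765 for FGF16, 0.0926 for GDF6, 0.102 for STC2, 0.109 for FGF18 and 0.126 for GDF5. Which genes had an unadjusted limma p under 0.05 depended on the setting. STC2 had 0.0612 with the replicate block and 0.127 without ADSC-Exos rabbit 2. FGF18 had 0.0294 with quantile normalization, and GDF5 had 0.00403 without control rabbit 1. FGF16 and GDF6 stayed under 0.05 wherever they were fitted. Quantile normalization shifted the median difference of the listed mRNAs by -0.27, to 0.84, and gave 2.39 for STC2 and -2.98 for FGF16. Limma's 0 calls over all listed mRNAs became 3 when adjusted over that table (EXOC3L1 with 2 transcripts and TMEM102) and 0 to 2 without 1 rabbit, the 2 being FAM98B and a transcript without a symbol, without ADSC-Exos rabbit 1. These were named after their values were seen. At an unadjusted p under 0.05 the count of 193 became 127 with the filter, which leaves fewer genes, and 94 to 311 without 1 rabbit, settings added after seeing the data. With the replicate block limma called 0 mRNAs, with 169 at an unadjusted p under 0.05. Deviations from the arm means correlated at -0.025 to 0.014 between rabbits with the same number, which gave no sign of a pairing by number. Over mRNAs listed for an arm difference, this cannot exclude a pairing. The medians at a pseudocount of 10 and with FGF16 at its bound were also added after seeing the data. Sums over transcripts of a gene were not run, as each gene has 1 listed transcript.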

Other observations

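Other listed mRNAs with growth factor or hormone activity in the authors' annotation were NRG1, CALCA, NTS and IL12B. All had lower means in ADSC-Exos scars, as did 179 of the 421 listed mRNAs. NRG1, the neuregulin ligand of ERBB receptors, had 997, 362 and 455 reads in ADSC-Exos and 1933, 1102 and 858 in control rabbits, with overlapping arms and a log2 difference of -1.12 (SE 0.56). CALCA, the calcitonin gene whose transcripts also encode a sensory neuropeptide, had 4, 6 and 6 reads in ADSC-Exos and 9, 20 and 17 in control rabbits. NTS, the neuropeptide neurotensin, had 21, 9 and 9 reads in ADSC-Exos and 79, 40 and 18 in control rabbits. IL12B, a subunit of interleukins 12 and 23, had 2, 0 and 0 reads in ADSC-Exos and 7, 5 and 7 in control rabbits, the same control reads as GDF6. By limma none of the 4 passed (adjusted p = 1 for each), where 0.0% of all listed mRNAs did.

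The circRNA table held 10 circular RNAs of 6 genes on the FGF and BMP lists, with 0 to 5 reads in any rabbit and an FDR of 0.82 in the authors' deposited table for each. A circRNA of the activin receptor gene ACVR2A, on chromosome 7 from 86552731 to 86553205 in the authors' coordinates (build not given), had 0, 5 and 3 reads in ADSC-Exos and 0, 0 and 1 in control rabbits. A longer one of ACVR2A, from 86552731 to 86571394, had 0 reads in each treated rabbit and 0, 2 and 1 in controls. SMAD4, the shared SMAD of the pathway, had 4 circRNAs. An FGFR2 circRNA, on chromosome 18 from 68473455 to 68477297, had 0 reads in each treated rabbit and 0, 2 and 1 in controls. At these counts no difference was detectable.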
